A study of Canis lupus familiaris with 34 samples.

Results

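The contactins are a family of 6 genes, CNTN1 to CNTN6, and their reads were followed here through the mitral valves of 34 Cavalier King Charles Spaniels. Members were found by gene symbol among the 23768 features of the deposited table, and all 6 were listed. A feature had to hold at least 100 counts over all dogs to be tested, which 19568 features and 5 of the 6 contactins did. CNTN6 held 62 counts and did not pass. CNTN3 had been selected on these same dogs, by its difference between the heart failure groups and by its rise with heart muscle genes, so its values in those comparisons are given as a description with no test.

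The dogs were privately owned and approximately 10 years old on average, with ages that varied by several years within each group. Age was in no fit. Of these dogs 19 were 10y-noCHF, that is, without congestive heart failure (CHF), 10 of them female and 9 male. The other 15 were 10y-MMVD-CHF, with CHF due to myxomatous mitral valve disease (MMVD), 6 of them female and 9 male. The 10y-noCHF group is not a group of healthy valves, since nearly all of its dogs had MMVD at a stage before CHF, and the stages are not paired with the dogs in the labels. The response to a diuretic was part of the CHF diagnosis, so the dogs with CHF had been treated. Every valve is 1 polyA RNA library from 1 dog, so the dogs are separate replicates. By the median correlation of its log2(CPM + 1) values with those of the other dogs, CAV1047, a female with CHF, was lowest at 0.940. The male CAV614, also with CHF, followed at 0.967, close to the next dog at 0.969. For most results that rest on these dogs, values with and without them are given where both were computed.

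Contactins are cell adhesion proteins of the immunoglobulin superfamily. They carry immunoglobulin-like and fibronectin type III domains and are held to the outer face of the membrane by a glycosylphosphatidylinositol anchor, with no part inside the cell. They are best known from the nervous system, where they guide axons, form synapses and organise the junctions between axons and myelinating glia. Because they have no intracellular part, they act together with partners in the membrane or the matrix, such as the CNTNAP proteins, L1 family molecules, receptor tyrosine phosphatases and tenascins.

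All 6 contactins were counted on features made by aligning human RefSeq genes to the dog genome (canFam4), and none had a canine RefSeq feature. Each feature was 1 unbroken interval, so exon and intron reads were counted together. CNTN1 was counted on chromosome 27 from 33541376 to 33890633, plus strand. CNTN2 was counted on chromosome 38 from 2151450 to 2184841, plus strand, and at 33.4 kb it was the shortest of the family. CNTN3 was counted on chromosome 20 from 17909262 to 18154647, plus strand. This interval covered 74.5% of the RefSeq dog gene, and 84.1 kb of it were left uncounted.

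CNTN4 and CNTN6 lie on the minus strand of the same chromosome as CNTN3. CNTN4 was counted from 14412973 to 15329034 and CNTN6 from 15957635 to 16228760. CNTN5 was counted on chromosome 21 from 1212518 to 2489976, minus strand, and at 1277 kb it was the longest. CNTN4 contains the feature of its antisense gene CNTN4-AS1, which held 3494 counts, or 10.9% of the CNTN4 sum of 32080. Counting used no strand, so reads of CNTN4 and CNTN4-AS1 cannot be told apart there. CNTN5 overlaps 3 small nucleolar RNA features, each with 93 counts, by 92 bases. No other feature overlapped CNTN1, CNTN2, CNTN3 or CNTN6.

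Levels are given as CPM, counts scaled to the size of the library, on the TMM scale of edgeR. CNTN4, which binds the amyloid precursor protein APP in the developing nervous system, had the most reads per library. It ranged from 7.46 to 32.9 CPM over the 34 dogs, with a median of 13.6 CPM. CNTN1, the contactin of the junctions between axon and myelin, ranged from 0.336 to 9.34 CPM with a median of 2.75 CPM. CNTN2, known as TAG-1 and an axonal and glial adhesion molecule, was the steadier of the pair, from 0.754 to 5.26 CPM with a median of 2.22 CPM. The highest dog was 27.8-fold above the lowest for CNTN1, 6.97-fold for CNTN2 and 4.41-fold for CNTN4.

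CNTN5, a contactin of auditory and visual pathways, ranged from 0.589 to 4.61 CPM with a median of 1.44 CPM, a 7.83-fold range. CNTN3 was low in most dogs and high in a few. Its median was 0.187 CPM, or 12 counts, and 5 dogs had no count. The dog with the highest level had 9.79 CPM, 52.3-fold above the median and 4.38-fold above the next dog. CNTN6, the contactin known as NB-3, had no count in 22 of 34 dogs and at most 0.180 CPM in any dog. If counts were independent, a count of 0 would allow up to 3 counts, a limit that covers counting error only. On total counts, without the TMM scaling of the other levels, this is 0.0364 to 0.0650 CPM. Both reads of a pair were counted, however. The counts above 0 were even in 12 of 12 dogs for CNTN6 and in 28 of 29 for CNTN3. Counts thus mostly came in pairs, and the limit given here is too low.

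Relative to the length of their intervals the order was different. The median over 34 dogs was 66.3 CPM per Mb for CNTN2, with an interquartile range of 47.3 to 99.3. It was 14.8 CPM per Mb for CNTN4 (interquartile range 11.7 to 20.1) and 7.88 for CNTN1 (5.72 to 15.2). CNTN5 had 1.13 CPM per Mb (0.743 to 1.35) and CNTN3 had 0.763 (0.169 to 2.59). The interquartile ranges of CNTN4 and CNTN1 overlapped, as did those of CNTN5 and CNTN3, and that of CNTN3 reached into that of CNTN6 (0 to 0.194). CNTN2 lay above all other members. The intervals differ in how much intron they hold, so this order is one of read density and not of transcript number. At the read density of CNTN6, the CNTN3 interval would hold 1.65 counts per dog.

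**Figure D1:**
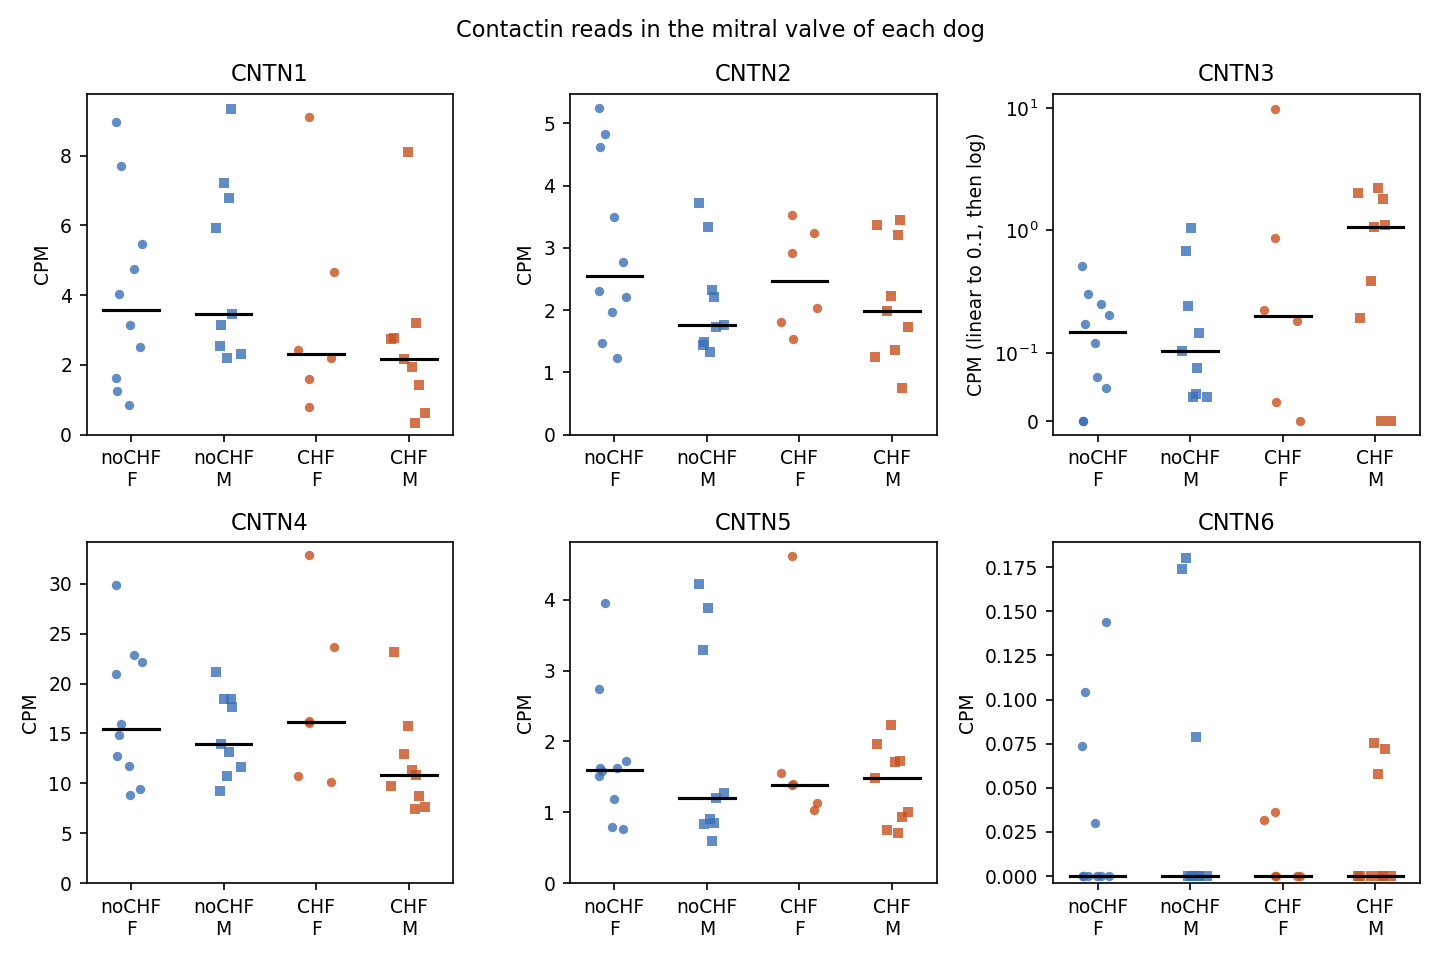
CPM of each contactin in each dog (points), for females (F, circles) and males (M, squares) of 10y-noCHF (blue) and 10y-MMVD-CHF (orange), with the median of each group as a bar; the axis of CNTN3 is linear up to 0.1 CPM and logarithmic above. CNTN3 reaches 9.79 CPM in 1 female with CHF and lies at 0 in 5 dogs, and the groups overlap for every member.

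The comparison of the heart failure groups asks which genes differ in the valve once MMVD has led to CHF. CNTN3 was the contactin with the largest difference. It had a lowest value of 0, a median of 0.390 and a highest value of 9.79 CPM in 10y-MMVD-CHF. In 10y-noCHF the corresponding values were 0, 0.121 and 1.05 CPM. In 6 of the 15 dogs with CHF the level was above that of the highest 10y-noCHF dog, and 4 lay below the 10y-noCHF median. The groups thus overlapped in their lower part.

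The log2 fold change of CNTN3 was 2.60 (SE 0.752, 95% interval 1.07 to 4.13), a 6.05-fold higher level in CHF, and only 1 of the 19568 features tested had a higher value. The contrast had chosen the gene, so this is not evidence of a difference. A large part of the value lay in the female with CHF named CAV1047, whose 382 counts were 30.9% of all CNTN3 counts. The log2 fold change fell to 1.37 when this dog was left out. CAV1047 also had the highest level of MYH7 (8911 CPM), the highest levels of CNTN4 and CNTN5, and the smallest library. Among the males, where CAV1047 plays no part, the median was 1.06 CPM in 9 dogs with CHF and 0.104 CPM in 9 without. This too is a description, since these dogs are among those that selected the gene. The median of MYH7 in these males was 883 CPM with CHF and 318 CPM without.

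None of the 4 members tested for CHF was called. Of all features tested, 23 (0.118%) had a false discovery rate (FDR) below 0.1 in edgeR's quasi-likelihood test with sex in the fit, and 1234 had an unadjusted p below 0.05. CNTN1 had a median of 2.21 CPM in 10y-MMVD-CHF (0.336 to 9.13) and 3.45 CPM in 10y-noCHF (0.848 to 9.34). In CHF, 12 of 15 dogs lay below the 10y-noCHF median, with wide overlap. The log2 fold change of CNTN1 was -0.58 (SE 0.362, 95% interval -1.31 to 0.157, FDR = 0.848).

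CNTN4 had a median of 11.4 CPM in 10y-MMVD-CHF (7.46 to 32.9) and 14.8 CPM in 10y-noCHF (8.86 to 29.8), with a log2 fold change of -0.12 (95% interval -0.494 to 0.249, FDR = 0.955). CNTN5 had medians of 1.39 CPM (0.708 to 4.61) and 1.52 CPM (0.589 to 4.23), with a log2 fold change of -0.21 (-0.782 to 0.369, FDR = 0.954). CNTN2 had medians of 2.03 CPM (0.754 to 3.54) and 2.22 CPM (1.24 to 5.26), with a log2 fold change of -0.12 (-0.563 to 0.320, FDR = 0.965). As folds, the 95% intervals ran from 0.677 to 1.25 for CNTN2, from 0.710 to 1.19 for CNTN4 and from 0.581 to 1.29 for CNTN5, and differences within these bounds are not excluded. Leaving out CAV1047 moved the log2 fold change to -0.44 for CNTN5 (FDR = 0.768 in edgeR), -0.24 for CNTN4 (FDR = 0.814) and -0.84 for CNTN1 (FDR = 0.630), and none was called.

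CNTN6 had counts in 5 of 15 dogs with CHF, at most 0.0757 CPM, and in 7 of 19 dogs without, at most 0.180 CPM. When all features were fitted without the count minimum, its log2 fold change was -1.21 (SE 0.887, FDR = 0.818 in edgeR), which rests on 62 counts.

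**Figure D2:**
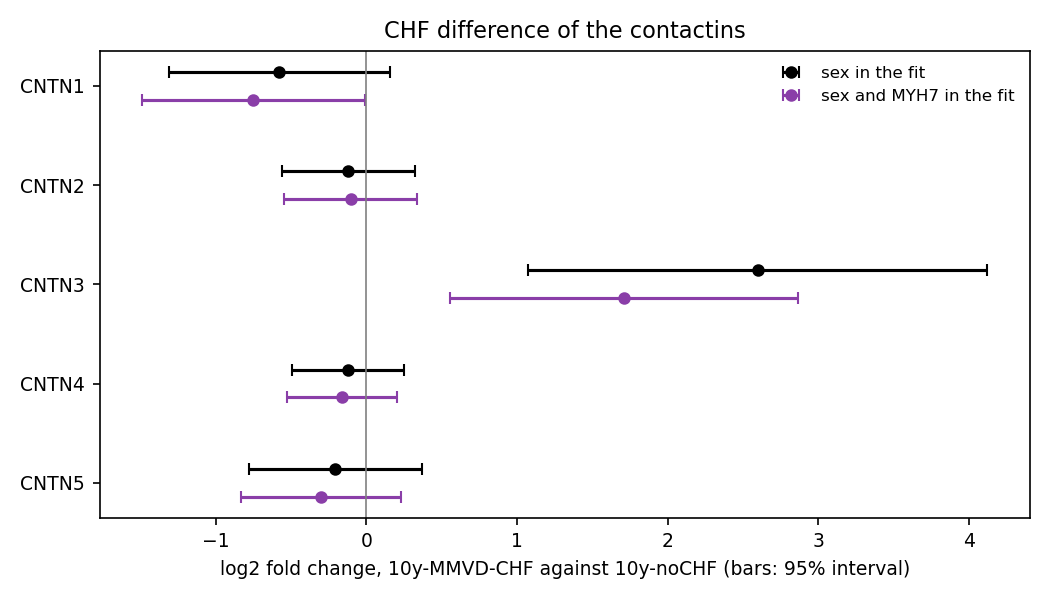
Log2 fold change of the 5 contactins with at least 100 counts between 10y-MMVD-CHF and 10y-noCHF (points) with 95% intervals (bars), from the fit with sex (black) and from the fit with sex and MYH7 (purple). CNTN3 lies at 2.60 and 1.71 and was chosen on this contrast, while the 4 other members lie between -0.75 and -0.10 and none passes the FDR threshold.

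The difference between CHF groups was next set against sex. In females the median of CNTN3 was 0.202 CPM with CHF (0 to 9.79, n = 6) and 0.147 CPM without (0 to 0.515, n = 10). The interaction of CHF and sex, male minus female, was -1.57 for CNTN3 (SE 1.47). It turned to 1.42 without CAV1047 and CAV614, the 2 dogs with the lowest correlation with the others. No contactin passed for this interaction, and neither did any other feature (0% of all tested, 1178 at an unadjusted p below 0.05 in edgeR). The FDR of CNTN1, CNTN2, CNTN4 and CNTN5 lay between 0.929 and 0.997.

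MYH7 encodes the slow myosin heavy chain of heart muscle. The mitral leaflet joins the atrial wall, so a piece of excised valve can carry muscle. MYH7 was counted on the exons of a canine RefSeq feature and ranged from 3.80 to 8911 CPM, with a median of 418 CPM. The dogs formed no separate clusters on it, and the largest gap between neighbours, 1.27 on the log2 scale, lay below the highest dog. The list of cardiomyocyte markers holds 18 genes including MYH7, and all 17 others had a called positive slope on it. The summed CPM of the 18 genes ranged from 56.9 to 26998 in 10y-noCHF and from 79.4 to 55673 in 10y-MMVD-CHF. In bulk tissue, fewer cells of a type and less RNA per cell cannot be told apart. The markers of valve interstitial cells, the fibroblasts of the leaflet, were abundant in every dog, with a summed level of 13101 to 35924 CPM for 8 genes.

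The relation of each contactin to MYH7 was measured as a slope, the change in log2 CPM for each doubling of MYH7, with sex and CHF group in the fit. MYH7 moved with a large part of the transcriptome. Of all features, 37.4% had a slope with an FDR below 0.1 in edgeR, 19% positive and 18.4% negative, so a called slope is common and sets no gene apart. The median slope of all features was -0.0057, and 90% of the features lay between -0.087 and 0.21.

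CNTN3 had the steepest slope of the family, 0.52 per doubling (SE 0.0881, 95% interval 0.342 to 0.700), which is a 3.32-fold higher level for each 10-fold of MYH7. This value is a description, since the relation to heart muscle had selected the gene. Of all features, 341 (1.74%) had a steeper positive slope. The slope was about 1 for most cardiomyocyte genes, for example 1.06 for TTN and 1.02 for ACTN2, so CNTN3 rose less steeply than the sarcomere genes. Without CAV1047 and CAV614 the slope of CNTN3 was 0.41. The dogs with no CNTN3 count had MYH7 levels from 8.08 to 1240 CPM, and the dog with the highest MYH7 had the highest CNTN3.

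CNTN3 correlated with MYH7 with a Pearson r of 0.58 and a Spearman rho of 0.72 over 34 dogs, on the log2(CPM + 1) scale. The rho was 0.86 in the 15 dogs with CHF and 0.73 in the 19 without. It was 0.62 in the 16 females and 0.77 in the 18 males. With the 2 dogs at the greatest distance from the MYH7 median left out, r was 0.58. These values too are a description of the relation that selected the gene.

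CNTN5 was the 1 tested contactin whose slope was called. It rose by 0.105 per doubling of MYH7 (SE 0.0386, 95% interval 0.0264 to 0.183, FDR = 0.0374 in edgeR), a 1.27-fold higher level for each 10-fold of MYH7. This call rested on CAV1047. Without this dog the slope was 0.083 with an FDR of 0.115. The correlation of CNTN5 with MYH7 had an r of 0.44 (permutation p = 0.00937, adjusted 0.0375) and a rho of 0.51 (permutation p = 0.00204, adjusted 0.00816) over 34 dogs, adjusted over the 4 members tested. The call by r was lost in 12 of 34 runs with 1 dog left out, among them that without CAV1047 (r 0.37, adjusted permutation p = 0.139), and the call by rho in none. With the 2 dogs at the greatest distance from the MYH7 median left out, the r was 0.36 (permutation p = 0.0406, adjusted 0.0813) and no longer passed, while the rho was 0.45 (adjusted permutation p = 0.0224) and passed.

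Within the CHF group the r of CNTN5 with MYH7 was 0.56 (adjusted permutation p = 0.0463), which passed, and the rho was 0.55 (0.126), which did not. This group holds CAV1047, which had the highest MYH7 and the highest CNTN5 of all dogs. The r of the group without this dog was not computed. Without CHF the r was 0.38 (adjusted permutation p = 0.411) and the rho was 0.49 (0.144), and neither passed. With group and sex means subtracted, the r was 0.46 (adjusted permutation p = 0.0539) and the rho was 0.49 (0.0257).

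The slopes of the other 3 members were not called. CNTN1 had a slope of 0.085 (95% interval -0.0222 to 0.192, FDR = 0.232). It rested on 1 dog in the opposite sense, since the male CAV749 combined the lowest MYH7 (3.80 CPM) with the highest CNTN1 (9.34 CPM), and without this dog the slope was 0.13 with an FDR of 0.0636. CNTN4 had a slope of 0.039 (-0.0177 to 0.0964, FDR = 0.307) and CNTN2 one of -0.029 (-0.0946 to 0.0359, FDR = 0.529).

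The correlations of these 3 members with MYH7 did not pass over all dogs either. The r and rho were 0.25 and 0.27 for CNTN1 (permutation p = 0.159 and 0.130, adjusted 0.212 and 0.260). They were 0.26 and 0.18 for CNTN4 (permutation p = 0.132 and 0.310, adjusted 0.212 and 0.414). For CNTN2 they were -0.15 and -0.14 (permutation p = 0.392 and 0.418, adjusted 0.392 and 0.418). With CAV749 and CAV1049 left out, the dogs at the greatest distance from the MYH7 median, the r was 0.48 for CNTN1 (adjusted permutation p = 0.0200), 0.33 for CNTN4 and -0.17 for CNTN2. Within the CHF group the r of CNTN1 with MYH7 was 0.61 (adjusted permutation p = 0.0463), which passed as that of CNTN5 did. The rho was 0.50 (adjusted 0.126) and did not pass. CAV1047 had the highest CNTN1 of this group as well as the highest MYH7. In the dogs without CHF the r of CNTN1 was 0.041 (adjusted permutation p = 0.864). CNTN6 was too sparse for a comparison with MYH7.

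**Figure D3:**
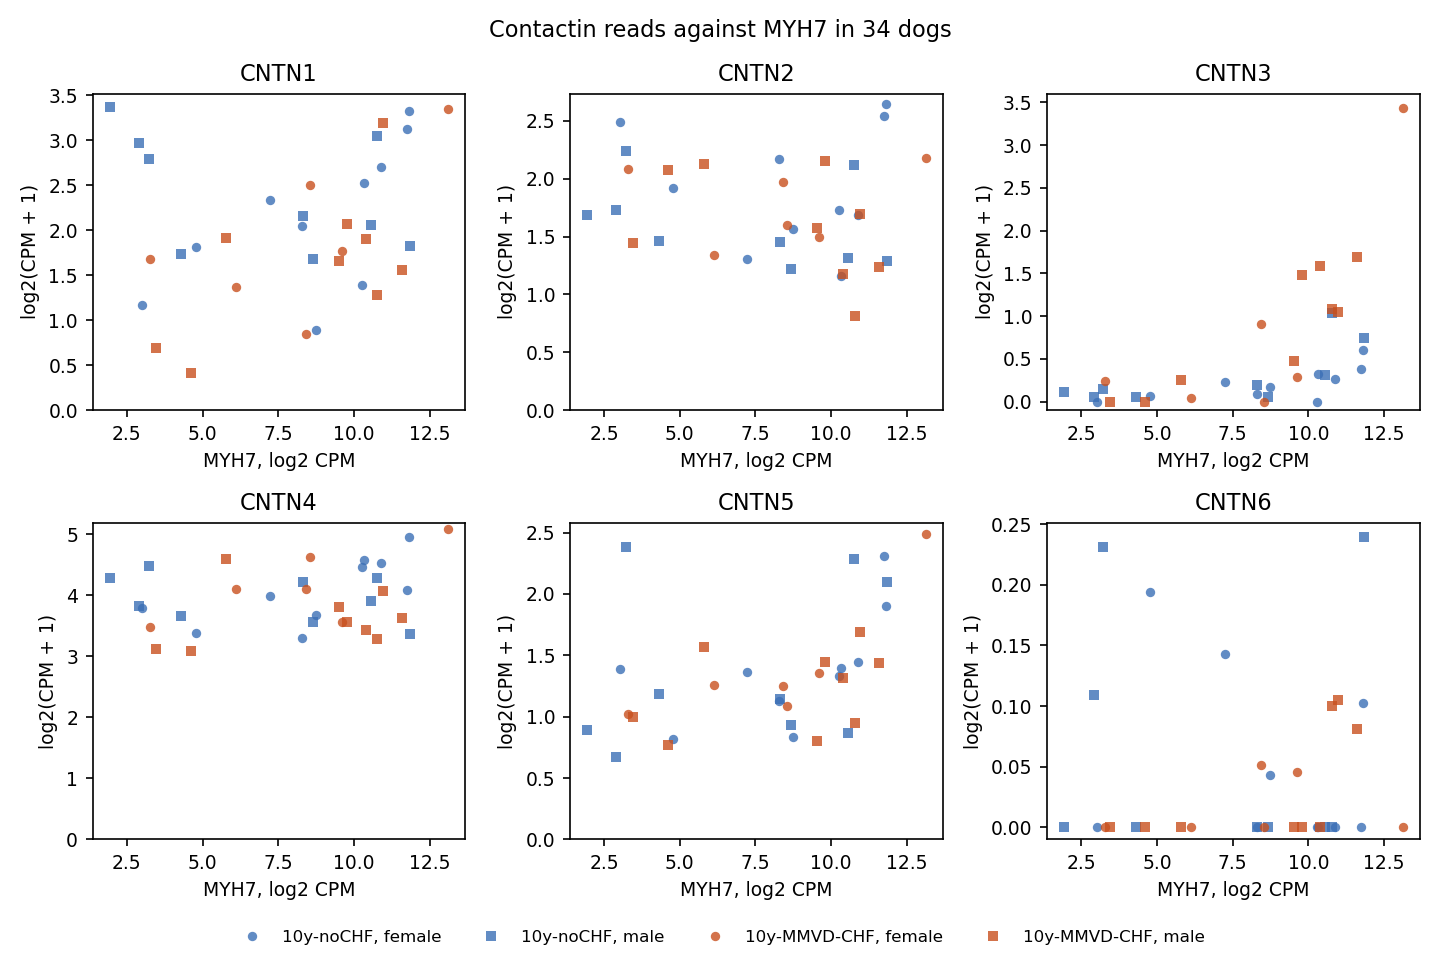
Log2(CPM + 1) of each contactin (vertical axis) against log2 CPM of MYH7 (horizontal axis) in 34 dogs, coloured by CHF group (blue 10y-noCHF, orange 10y-MMVD-CHF), with circles for females and squares for males. CNTN3 stays near 0 at low MYH7 and spreads upward at high MYH7 (rho 0.72), CNTN5 rises less (rho 0.51), and CNTN2 shows no rise (rho -0.14).

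The relation to MYH7 looked different in females and males for 2 members. In the 16 females the rho with MYH7 was 0.68 for CNTN1, 0.67 for CNTN4 and 0.68 for CNTN5 (adjusted permutation p = 0.00719 for each). In the 18 males it was -0.15 for CNTN1, -0.25 for CNTN4 and 0.38 for CNTN5, and none passed (adjusted permutation p of 0.558, 0.427 and 0.231). The females include CAV1047, which had the highest MYH7, CNTN4 and CNTN5 of all dogs. The males include CAV749, which had the lowest MYH7 and the highest CNTN1. The rho of each sex without these dogs were not computed. The difference between the sexes was tested with an interaction of sex and MYH7 across all features, a test added after these values were seen. The male slope minus the female slope was -0.17 for CNTN4 (SE 0.0498, unadjusted p = 0.00203, FDR = 0.666 in edgeR) and -0.24 for CNTN1 (SE 0.0993, unadjusted p = 0.0227, FDR = 0.677). Neither passed, and no feature did (0% of all tested, with 1396 at an unadjusted p below 0.05). For CNTN5 it was -0.10 (FDR = 0.755) and for CNTN2 -0.075 (FDR = 0.788).

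The CHF difference was then read at equal MYH7. For CNTN3 the log2 fold change was 1.71 (SE 0.568, 95% interval 0.558 to 2.87), against 2.60 with sex alone in the fit, and it was 1.44 without CAV1047 and CAV614. The value stayed positive, but its decrease rested on CAV1047. Without this dog the value was 1.37 with sex alone and 1.34 at equal MYH7. Without CAV1047 and CAV614 it was 1.46 with sex alone. For CNTN1 the value at equal MYH7 was -0.75 (95% interval -1.49 to -0.0097, unadjusted p = 0.0472, FDR = 0.644 in edgeR), and for CNTN5 -0.30 (-0.830 to 0.230, FDR = 0.808). CNTN4 had -0.16 (FDR = 0.856) and CNTN2 -0.10 (FDR = 0.932). None of these 4 was called, beside 30 of all features (0.153%).

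Whether the slope on MYH7 differed between the CHF groups was tested by their interaction. The slope of CNTN1 was higher in CHF by 0.25 (SE 0.102, unadjusted p = 0.0208, FDR = 0.802 in edgeR) and did not pass. Without CAV1047 and CAV614 it was higher by 0.13 and did not pass either. That of CNTN3 was higher by 0.32 (SE 0.165) and by only 0.073 without CAV1047 and CAV614. No feature passed (0% of all tested, 1124 at an unadjusted p below 0.05), and CNTN2, CNTN4 and CNTN5 had FDR values between 0.932 and 0.986.

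The members also varied with each other. Of the 10 pairs among CNTN1 to CNTN5, 9 had a rho above 0, and 4 passed an adjusted permutation p of 0.05 by rho and 5 by r. The share of all pairs of features that would pass was not computed, but rho of this size is common for some members: among all features compared, the 95th percentile of rho was 0.55 with CNTN5 and 0.65 with CNTN3, and 0.43 with CNTN1, 0.36 with CNTN2 and 0.39 with CNTN4. All pairs share their libraries and depth, and every interval holds introns. CNTN1 and CNTN4 were the closest pair, with an r of 0.65 (permutation p = 8e-05, adjusted 0.0008) and a rho of 0.60 (permutation p = 0.00024, adjusted 0.0024). Their rho was 0.60 in either CHF group. With the 2 dogs at the greatest distance from the CNTN1 median left out the r was 0.60, and without CAV1047 and CAV614 the rho was 0.53 (adjusted permutation p = 0.0236).

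CNTN5 correlated with CNTN1 (r 0.53, rho 0.47), with CNTN3 (r 0.49, rho 0.48) and with CNTN4 (r 0.51, rho 0.48), and the adjusted permutation p of rho was 0.0126 for each of the 3 pairs. Without CAV1047 and CAV614 these rho were 0.42, 0.43 and 0.41, each with an adjusted permutation p of 0.0536, so they did not pass. With the 2 dogs at the greatest distance from the median of its partner left out, the r of CNTN5 was 0.58 with CNTN1, 0.33 with CNTN3 and 0.37 with CNTN4. CNTN2 and CNTN5 passed by r alone (r 0.43, adjusted permutation p = 0.0229), with a rho of 0.32 (0.101). CNTN3 did not pass with CNTN1 (rho 0.32), CNTN2 (rho -0.061) or CNTN4 (rho 0.093), with adjusted permutation p of 0.101, 0.734 and 0.666. With group and sex means subtracted, CNTN1 and CNTN3 did pass (r 0.47, adjusted permutation p = 0.0168, and rho 0.41, adjusted 0.0354), and in all 6 pairs passed by r and 5 by rho.

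For each contactin the 5 features with the most similar pattern over the 34 dogs were listed by Spearman rho, among features of at least 0.5 CPM on average. For CNTN3 the 3 highest were ANK1, an ankyrin of the membrane skeleton (rho 0.80), KLHL3 (0.80) and CLYBL (0.80). These 3 also followed MYH7, with rho of 0.79 to 0.88. For CNTN5 they were PROM1 (0.83), DAAM1 (0.81), IL17RD (0.80), KAT6B (0.77) and ZDBF2 (0.77), whose rho with MYH7 lay between 0.52 and 0.62.

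For CNTN2 the most similar features were CNTFR, a receptor subunit for ciliary neurotrophic factor (0.75), CES2 (0.75), SEMA6C (0.74), PTGDS (0.71) and TOB2 (0.71). Their rho with MYH7 ran from -0.42 to 0.054. For CNTN4 they were ZNF283 (0.68), EPM2AIP1 (0.65), AKAP9 (0.62), ZMYM2 (0.62) and ANK2 (0.62). For CNTN1 they were CTAGE9 (0.75), CIBAR1P2 (0.75), CTAGE11P, CTAGE15 and CTAGE4 (0.74 each). The CTAGE features are alignments of related human gene copies with mean levels of 30.5 to 30.6 CPM, and since a read was counted in every feature it touched, they are uncertain as separate genes.

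The 16 genes whose proteins bind contactins or their close relatives were all tested. None was called for CHF, and their median log2 fold change was -0.019 beside 0.0076 for all features. The 3 with the largest values were PTPRZ1, a receptor phosphatase that binds CNTN1 (0.57, FDR = 0.848), TNR (-0.50, FDR = 0.848) and TNC (-0.36, FDR = 0.838), tenascins of the matrix. PTPRG, the receptor phosphatase that binds CNTN3 to CNTN6, had 67.6 to 172 CPM over the dogs and a log2 fold change of 0.26 (FDR = 0.470).

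On MYH7, 4 of the 16 partners had a called positive slope, 3 a called negative one and 9 none, with a median slope of -0.022. Of all features, 19% had a called positive slope and 18.4% a called negative one, so these counts do not set the partners apart. Among the L1 family, CHL1 rose by 0.49 per doubling (SE 0.0337, FDR = 4.3e-14), from a lowest level of 0.335 to a highest of 13.1 CPM. L1CAM rose by 0.11 (FDR = 0.0399), NRCAM had -0.017 (FDR = 0.853) and NFASC -0.0060 (FDR = 0.897). NCAM1, the neural cell adhesion molecule, rose by 0.14 (FDR = 6.4e-05).

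Of the CNTNAP genes, CNTNAP2, the partner of CNTN2 beside the node of Ranvier, rose by 0.031 (FDR = 0.0634), while CNTNAP1, the partner of CNTN1 at the junction of axon and myelin, fell by 0.061 (FDR = 0.0206). CNTNAP4 had -0.090 (FDR = 0.139) and CNTNAP5 -0.032 (FDR = 0.552). TNC fell by 0.11 (FDR = 0.00101) and TNR fell by 0.12 (FDR = 0.0573). APP had 0.027 (FDR = 0.214) and NOTCH1, for which CNTN1 is a ligand, -0.028 (FDR = 0.112).

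**Figure D4:**
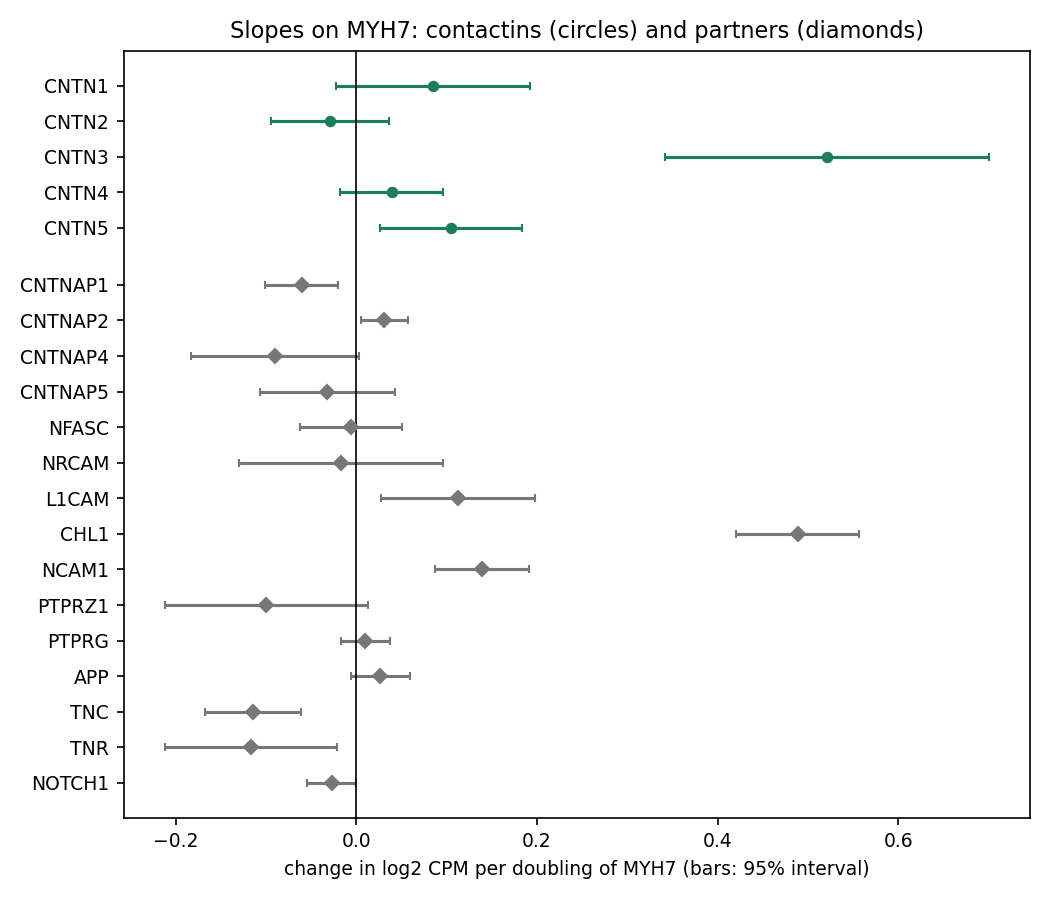
Change in log2 CPM per doubling of MYH7 (points) with 95% intervals (bars), from the edgeR fit with sex and CHF group, for 5 contactins (green circles) and 15 partner genes (grey diamonds). CNTN3 (0.52, chosen on this relation) and CHL1 (0.49) lie far to the right of the other genes.

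Several kinds of cell could carry contactins in a valve, and their markers were read beside MYH7. Genes are counted as rising or falling where the slope was called, as it was for 19% and 18.4% of all features. The lists are short, so small counts among them do not differ clearly from these shares. Of 10 genes of the conduction system, 7 rose with MYH7 and none fell, among them HCN4 with a slope of 1.01. Of 9 listed Schwann cell genes, 3 rose and 2 fell, with SOX10 at 0.55, CDH19 at 0.46 and PMP22 at -0.027. Of 11 tested neuron genes 5 rose and 1 fell. TUBB3 (median 10.3 CPM), UCHL1 (13.4) and PRPH (20.4) were counted in every dog. Of these UCHL1 rose (slope 0.11), PRPH was the 1 that fell (-0.15) and TUBB3 was not called (-0.11). The other neuron genes that rose, NEFL, NEFM, SNAP25 and DBH, were near the floor, with medians from 0 to 0.846 CPM. TH, a marker of catecholaminergic neurons, had no count in 32 of 34 dogs. Of the 8 valve interstitial genes 7 fell. Adipocyte genes rose in 3 of 4 cases, macrophage genes fell in 3 of 5, endothelial genes rose in 2 of 6, and of 5 smooth muscle genes 2 rose and 2 fell.

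The mean level of each list was also correlated with the contactins across the 34 dogs, in relations added after the values were seen, with permutation p adjusted over 44 of them. CNTN5 passed by both measures with the Schwann cell genes (r 0.64, rho 0.54, adjusted permutation p = 0.00117 and 0.00867), the conduction system genes (r 0.53, rho 0.52, adjusted 0.00729 and 0.0112) and the cardiomyocyte genes (r 0.44, rho 0.53, adjusted 0.0277 and 0.00867). It passed narrowly by 1 measure with the smooth muscle (r 0.43, adjusted 0.0338), macrophage (r -0.42, adjusted 0.0356) and neuron genes (rho 0.42, adjusted 0.0470). CNTN1 passed by both with the Schwann cell genes (r 0.55, rho 0.49, adjusted permutation p = 0.00484 and 0.0183), and by r alone with the conduction system (r 0.45) and adipocyte genes (r 0.46, adjusted 0.0277 for each). CNTN4 passed narrowly by r alone with the adipocyte genes (r 0.41, adjusted 0.0435), and CNTN2 with no list. With the 2 dogs at the greatest distance from the median Schwann cell level left out, r was 0.50 for CNTN5 and 0.45 for CNTN1. CNTN3 had a rho of 0.69 with the Schwann cell genes, 0.70 with the conduction system genes, 0.70 with the cardiomyocyte genes and -0.63 with the valve interstitial genes. MYH7 itself had a rho of 0.78 with the Schwann cell genes and 0.96 with the conduction system genes. These lists move together across dogs, so which cell type carries the contactin reads cannot be told apart in these samples.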

How the data were processed

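Mitral valve polyA RNA of 34 dogs was sequenced as paired reads. The authors aligned them with STAR to canFam4, counted them with featureCounts 2.0.3 over canine RefSeq and aligned human RefSeq genes, and deposited the raw counts. By the header, mates are counted apart, a read goes to each feature it touches and strand is ignored, so counts overstate the number of fragments. Of the count columns, 1 belongs to no labelled sample and was not used. Starts are given as in the table. Total counts ranged from 46185256 to 82361245 per dog, and relative counting error is largest for CNTN3 and CNTN6, which have the fewest counts.

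Groups and sexes follow the labels. Features reaching 100 counts in sum were tested with edgeR 4.0.16 (quasi-likelihood, TMM, FDR threshold 0.1) in R 4.3.3, with sex, and for slopes also CHF group and log2 MYH7 CPM. Intervals are at 95%. Correlations used log2(CPM + 1) and two-sided permutation tests with 100000 resamples (NumPy 2.4.6), with Benjamini-Hochberg adjustment. Alternatives were DESeq2 1.42.0, limma 3.58.1 voom with sample weights, RLE, no filter, filterByExpr, no sex term, FDR 0.05, a pseudocount of 0.1, the cardiomyocyte list in place of MYH7, and dogs left out. The functions were tested on simulated data. The members and gene lists were chosen with earlier results of these data known. The genes named are the contactins, MYH7, the partner list, defining genes of the marker lists, and for each contactin with a median of at least 10 counts the 5 features with the highest rho, 1 per symbol and not overlapping it. A few of the genes so chosen are not reported here. No protein or promoter sequence was used here.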

Additional observations from a re-analysis of the deposited data

Results flagged for a closer look

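In each of the 4 groups by CHF and sex, each contactin and MYH7 were examined for a dog far from the others, on the log2(CPM + 1) scale, by the gap to the next dog as a share of the range, against Dixon's 95% critical value. Of 28 such sets of values 2 held one. The criterion is nominally met by about 1 in 20 sets by chance, and the sets share dogs, so this rate was not measured here. Both were the same dog, CAV1047, among the 6 females with CHF. For CNTN3 this dog had 9.79 CPM and the next 0.874 CPM, a gap of 0.736 of the range of the group. For CNTN5 it had 4.61 CPM and the next 1.56 CPM, a gap of 0.772 of the range. The dog also had the highest MYH7 of all dogs, 8911 CPM, and the smallest library, and the part of these in the 2 values was not tested.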

How the results depend on the processing

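CNTN6, with 62 counts in all, is limited by depth. CNTN3 had a median of 12 counts per dog. Halving every count moved its log2 fold change from 2.60 to 2.57, and leaving out CAV1047 moved it to 1.37. Halving keeps the ratios between dogs nearly as they were, so it cannot show whether CNTN3 is limited by depth. No paired analysis was possible because every sample is a different dog and the replicate numbers only count dogs within a group. A canine RefSeq feature in place of the human one gave no value for any contactin, since none is listed. CHF calls among all features numbered 64 with DESeq2, 13 without the sex term, 9 at an FDR of 0.05, and 8 to 28 when each dog was left out, against 23. The log2 fold change of CNTN3 was 1.36 with limma voom, 1.46 without CAV1047 and CAV614, and 1.37 to 2.98 leaving out each dog. Without CAV1047 and CAV614, the slope on MYH7 was 0.41 for CNTN3 and 0.081 for CNTN5 (FDR = 0.152 in edgeR), the interaction of CHF and sex was 0.031 for CNTN1, 1.42 for CNTN3 and 0.033 for CNTN5, that of sex and MYH7 was 0.091 for CNTN3, that of CHF and MYH7 was 0.073 for CNTN3, -0.042 for CNTN4 and -0.039 for CNTN5, the r of CNTN5 with MYH7 was 0.35, and 2 pairs passed by r and 1 by rho. With group and sex means subtracted, the r of CNTN5 with MYH7 was 0.46 and did not pass. Leaving out each dog, the slope ranged from 0.062 to 0.13 for CNTN1 and 0.083 to 0.15 for CNTN5, the r of CNTN5 with MYH7 from 0.37 to 0.60, and the pairs past the threshold from 3 to 6 by r and 4 to 5 by rho. The cause of these shifts was not tested. None of CNTN1, CNTN2, CNTN4 and CNTN5 was called for CHF under any alternative run. Subtracting CNTN4-AS1 from CNTN4 and halving the counts, both chosen after seeing the data, changed no call of a contactin.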
